A study of Homo sapiens with 30 samples.

Results

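The chromatin of TeloHAEC endothelial cells grown without VEGF was compared with that of the same cells in their usual medium. These 6 libraries, 3 without VEGF and 3 controls, were taken by their titles from the 30 libraries of a series on 2 human endothelial lines. TeloHAEC are parental aortic endothelial cells immortalised with telomerase, and their medium is supplied with VEGF. In the withheld group this factor had been absent from the medium for 24 h. The control group stayed in the full medium, and both groups were prepared on day 1. The other TeloHAEC libraries of day 1, which entered the same fit, had received 10 ng/ml IL1b or 10 ng/ml TNFa for 24 h in medium that held VEGF, with 3 libraries each. The second line, the endothelial hybrid Eahy926, grows without VEGF and had received it for 24 h in 3 libraries. Its other libraries of day 1 were 3 controls, 3 with 10 ng/ml IL1b and 3 with 10 ng/ml TNFa for 24 h. All these day 1 libraries of both lines entered the fit that compared the lines, so the cytokine groups helped to set its spread. Control libraries of day 0 were added to a fit only in an alternative setting. The labels give neither the concentration nor the isoform of the VEGF. The 3 libraries of each group are labelled as biological replicates, without a mention of separate cultures. The p-values therefore measure only the spread between these samples, which may be technical.

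VEGF-A is a secreted growth factor on which endothelial cells depend for survival, division and sprouting. It binds the receptor tyrosine kinase VEGFR2, encoded by KDR. FLT1 encodes a receptor with high affinity and weak kinase activity, and the neuropilins NRP1 and NRP2 act as co-receptors. Signalling runs through MAP kinase and through calcineurin and NFAT to immediate early genes such as EGR3, NR4A1 and RCAN1. It also runs through AKT, which keeps FOXO1 out of the nucleus, and it raises DLL4, the Notch ligand of the leading cell of a sprout. The assay was ATAC-seq, in which the transposase Tn5 cuts open DNA and peaks of cuts mark accessible promoters and enhancers.

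The promoters of a receptor, a co-receptor, a ligand and a pair of sprouting genes are shown because the values below turn on peaks at these gene starts. Each line gives the 250 bases before the RefSeq start in the build GRCh38.p14, 5′ to 3′ on the strand of the gene. The windows are chr4:55125596-55125845 (minus strand), chr2:205682251-205682500 (plus), chr14:74955765-74956014 (minus), chr15:40929090-40929339 (plus) and chr5:54985594-54985843 (minus). Capitals mark matches to the GC box GGGCGG on either strand, and overlapping matches run together.
KDR: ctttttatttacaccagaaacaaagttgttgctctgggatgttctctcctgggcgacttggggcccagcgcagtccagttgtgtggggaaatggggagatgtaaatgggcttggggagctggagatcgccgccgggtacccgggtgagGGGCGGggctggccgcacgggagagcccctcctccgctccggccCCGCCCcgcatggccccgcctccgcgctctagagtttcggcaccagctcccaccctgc
NRP2: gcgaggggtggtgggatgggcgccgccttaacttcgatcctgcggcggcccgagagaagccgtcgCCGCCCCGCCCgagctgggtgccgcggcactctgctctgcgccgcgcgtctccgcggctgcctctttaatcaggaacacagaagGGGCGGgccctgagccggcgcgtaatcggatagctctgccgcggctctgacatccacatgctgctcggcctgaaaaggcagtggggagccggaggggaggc
PGF: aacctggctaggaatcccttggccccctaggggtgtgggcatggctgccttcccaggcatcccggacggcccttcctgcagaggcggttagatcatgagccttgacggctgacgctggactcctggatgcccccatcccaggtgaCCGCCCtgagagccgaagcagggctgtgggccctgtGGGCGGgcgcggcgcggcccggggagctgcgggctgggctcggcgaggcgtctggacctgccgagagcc
DLL4: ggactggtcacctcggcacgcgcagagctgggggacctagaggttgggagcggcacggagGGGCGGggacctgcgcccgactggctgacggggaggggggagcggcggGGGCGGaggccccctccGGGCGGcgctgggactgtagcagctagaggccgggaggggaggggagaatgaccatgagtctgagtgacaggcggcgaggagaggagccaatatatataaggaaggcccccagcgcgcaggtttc
ESM1: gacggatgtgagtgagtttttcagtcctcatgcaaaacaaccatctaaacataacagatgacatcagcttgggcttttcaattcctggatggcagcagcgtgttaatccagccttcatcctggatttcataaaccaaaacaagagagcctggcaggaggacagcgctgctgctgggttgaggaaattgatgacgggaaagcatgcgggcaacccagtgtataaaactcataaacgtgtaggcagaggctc
The letters CGGAAG, a strict form of the site bound by ETS factors, and TGANTCA, bound by AP-1, were searched on both strands as well. Shorter forms of the ETS site were not searched. KDR and PGF each had 2 GC boxes, NRP2 and DLL4 each had 3, and ESM1 had none. None of these 5 windows held CGGAAG or TGANTCA. Over all 35116 promoter windows of 250 bases, 42.6% held the GC box, 16.5% CGGAAG and 6.57% TGANTCA. The GC share of the 5 windows was 65.2% for KDR, 70.0% for NRP2 and DLL4, 70.8% for PGF and 47.6% for ESM1. These are matches of letters, not measured binding. RefSeq promoters were matched for 115 of the 175 listed genes, and VEGFA was not among them.

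Removal of VEGF gave no region whose accessibility passed the test. Peaks were compared by their place in each library's list, where place 1 is the strongest peak by the authors' p. Every list was shortened to its 49774 strongest peaks on the 22 autosomes. The place was turned into a rank score, log2 of the list length plus 1 over the place. A score difference of 1 is therefore a place 2 times nearer the top, and a region without a kept peak scores 0. A library without a kept peak in a region may still have a weaker called peak there that lay beyond the end of the shortened list. Of 58694 regions of 501 bp tested with limma, 0 passed an adjusted p of 0.05 (0.0%), and the smallest adjusted p was 0.0534. At an unadjusted p below 0.05 there were 2951 regions (5.03%), 1417 with a higher score without VEGF (2.41%) and 1534 with a lower one (2.61%). In the same fit and against the same controls, IL1b gave 196 calls (0.334%) and 5823 regions (9.92%) at an unadjusted p below 0.05, and TNFa 2 calls (0.00341%) and 4554 regions (7.76%). The median score difference without VEGF was 0, and the middle 50% of regions lay between -0.30 and 0.30. The median standard error was 0.50. Only 636 regions (1.08%) differed by 2 or more in either direction, beside 1166 (1.99%) with IL1b and 1057 (1.80%) with TNFa. A p above the threshold does not show that accessibility stayed the same. Between 0 and 7 regions were called under the alternative settings of the analysis, with 3 calls without withheld replicate 2, 1 without withheld replicate 3, and 1, 1 and 2 without control replicate 1, 2 and 3.

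**Figure D1:**
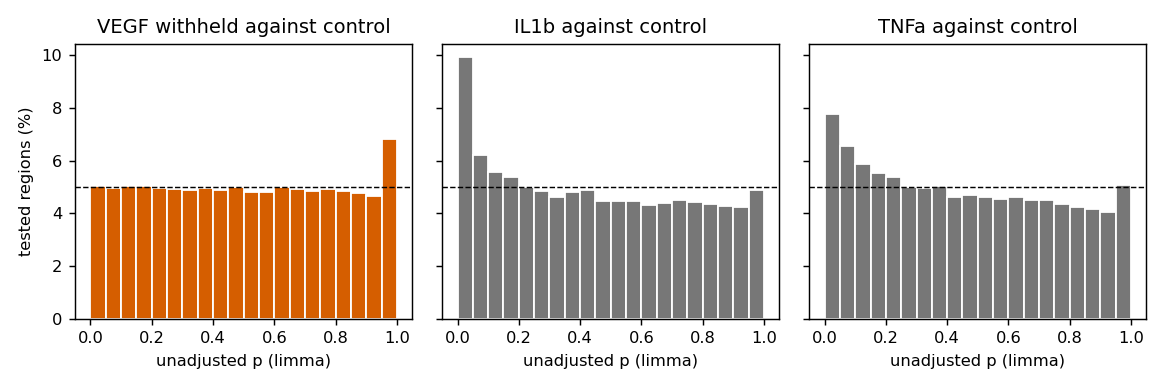
Share of the 58694 tested regions (vertical axis, %) in each 0.05-wide bin of unadjusted limma p (horizontal axis), for VEGF withheld, IL1b and TNFa against the same 3 controls. The dashed line is 5%. The first bin holds 5.03% of regions for VEGF withheld, 9.92% for IL1b and 7.76% for TNFa.

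Withheld replicate 1 was shallow. After duplicate removal it kept 3809718 tags, beside 8009278 and 9314654 in withheld replicates 2 and 3, and 8013868, 8578349 and 9304953 in the controls. The caller's fragment length was 157 bp in this library and 104 and 105 bp in the other two withheld libraries, against 100 to 108 bp in the controls. It also had 69715 autosomal peaks, where the other 5 libraries had 102084 to 112669. The mean number of autosomal peaks was 93347 ± 20528 without VEGF and 107979 ± 5394 with it (SD, n = 3 each). Exact permutation tests over 3 against 3 libraries, whose smallest possible p is 0.10, could not pass for peak numbers (p = 0.3, two-sided) or kept tags (p = 0.6). Without this library 0 regions were called, and without it and the equally shallow TNFa replicate 3 there were 5.

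The strongest 45000 peaks of withheld and control libraries shared as much sequence as those of controls with each other, once the shallow library was set apart. The Jaccard index, shared over joint base pairs, was 0.607 to 0.611 among the 3 control pairs. It was 0.604 to 0.615 for the 6 pairs of withheld replicate 2 or 3 with a control, and 0.619 between these replicates. Every pair with withheld replicate 1 was lower, at 0.562 and 0.568 within its group. Against IL1b the 6 pairs without replicate 1 gave 0.571 to 0.579.

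**Figure D2:**
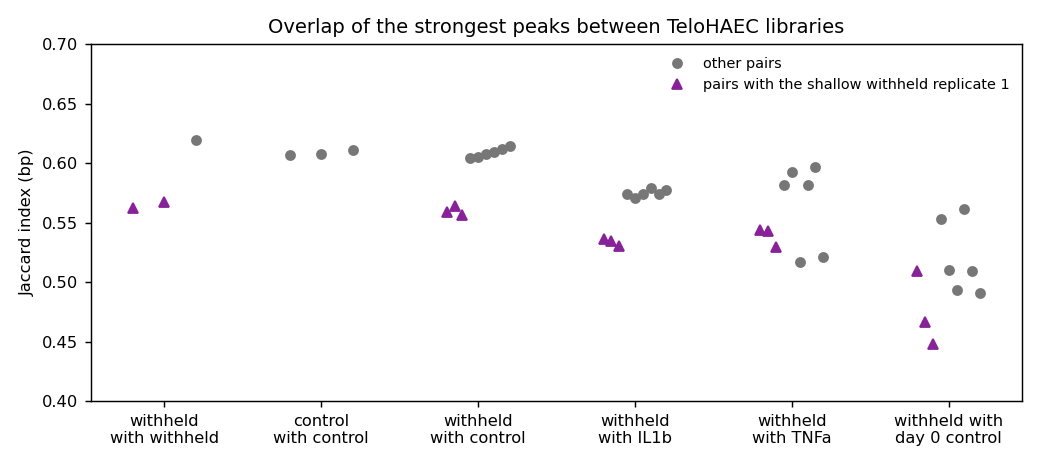
Jaccard index in base pairs (vertical axis, from 0.4 to 0.7) for pairs of TeloHAEC libraries, by the pair's groups (horizontal axis). Triangles are pairs that include withheld replicate 1, and circles are all other pairs; the 6 withheld-control circles lie from 0.604 to 0.615 and the 3 control-control circles from 0.607 to 0.611.

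Some endothelial marker genes were open in both groups and others were not. A gene start was counted as open where a strong peak lay within 1 kb. The endothelial surface and junction genes had 6 to 7 of 13 starts open without VEGF and 4 to 7 with it. CDH5, encoding VE-cadherin, ROBO4 and TIE1 were open in all 6 libraries, while PECAM1, CLDN5, ESAM, MMRN2, CD34 and JAM2 were open in none. Among endothelial transcription factors ERG, FLI1, ETS2, ELK3, LMO2 and HHEX were open in all 6, and ETS1, TAL1, SOX18 and MEF2C in none. Of these 14 starts, 6 to 9 were open without VEGF and 7 to 9 with it. Of the 9 blood cell marker starts, PTPRC and SPI1 included, 0 were open in any of the 6. Of 9 epithelial starts 1 to 2 were open without VEGF and 1 to 3 with it, KRT18 in all 6 and EPCAM and CDH1 in none. Of 10 mesenchymal starts the range was 4 to 5 and 3 to 5, with COL1A1 and SNAI2 open in all 6.

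At the VEGF receptor genes the 2 groups overlapped at every promoter. The KDR promoter region (hg19 chr4:55991541-55992041), whose sequence is given above, had places 32509, 13785 and 24480 without VEGF and 14644, 33406 and 3514 with it. The strongest peak was that of control replicate 3, and the remaining 5 libraries were interleaved. The score difference was -0.89 ± 0.71 (SE, adjusted p = 0.996, limma). This value rested on single controls, being -0.0066 without control replicate 3 and -1.63 without control replicate 2. A second KDR region, 8883 bp into the gene (chr4:55982629-55983129), had places 11874, 22225 and 16928 without VEGF. In the controls the places were 40764 and 32000, and replicate 2 had no kept peak. All 3 withheld libraries were thus above all 3 controls, by 1.29 ± 0.53 (adjusted p = 0.974), which did not pass. At such separation regions with higher scores made up 4.88% of all tested regions and those with lower scores 4.8%.

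FLT1, the high-affinity receptor, had a weak promoter peak. Its region (chr13:29069133-29069633) was at place 49718 in withheld replicate 2 and had no kept peak in the other two, while the controls had places 38008 and 40061 and 1 library without a kept peak (difference -0.23 ± 0.23). All 6 libraries had a called peak there in their full lists. At NRP1 the promoter was as weak, with a kept peak in 1 library of each group, at place 29243 without VEGF and 47068 with it. A region 31119 bp from the NRP1 start (chr10:33654702-33655202) ranked near the top of all 6 lists. Its places were 229, 1863 and 64 without VEGF and 1969, 904 and 727 in the controls, which overlap (1.86 ± 1.24, adjusted p = 0.993). This difference was 0.74 without withheld replicate 3 and 3.17 without withheld replicate 2. The NRP2 promoter (chr2:206546877-206547377) had places 10168, 9240 and 19035 against 14252, 22893 and 8831 (0.23 ± 0.66). FLT4, the receptor of lymphatic endothelium, had no tested region within 50 kb. Of the 24 regions near receptor genes 0 were called, and 1 had an unadjusted p below 0.05 (4.17%, beside 5.03% of all tested regions). The median difference was 0.09, against 0 over all regions.

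Among the ligand genes, open VEGFA and PGF starts were found in all 6 libraries and open VEGFB and VEGFC starts in none. The VEGFA promoter (chr6:43737633-43738133) had places 32039, 27101 and 26294 without VEGF and 33299, 42865 and 12789 with it. The withheld libraries lay inside the range of the controls, with a difference of -0.11 ± 0.48. A region 46185 bp upstream of VEGFA (chr6:43691511-43692011) had places 30407, 26351 and 8961 without VEGF, whereas 1 control had a kept peak, at place 40963, and all 3 had a called one. The difference was 1.27 ± 0.42 with an adjusted p of 0.924, and 0.72 without withheld replicate 3. PGF, which encodes placental growth factor, had places 17364, 36056 and 21688 against 37942, 36541 and 13170 at its promoter (0.14 ± 0.54). Near VEGFC, the ligand of lymphatic growth, the nearest region (chr4:177715283-177715783) had places 24475, 12289 and 34313 without VEGF. The controls had no kept peak in replicate 1 and places 23031 and 47893 (0.80 ± 0.55, and 0.39 without withheld replicate 2). Near VEGFB the nearest region differed by -0.44 ± 0.35, and by -0.08 without control replicate 2. One 49106 bp away differed by 2.52 ± 0.98, and control replicate 1 had no kept peak there. Without that library the difference was 1.30, without control replicate 3 it was 3.54, and with an overlap of 1 bp it was 1.23. Of 34 regions near ligand genes 0 were called, and the median was 0.03. An unadjusted p below 0.05 was found in 2, both higher (5.88%, beside 5.03% of all tested regions).

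Most genes that VEGF is known to induce had open starts in both groups. Of 18 immediate early and NFAT target genes, 14 to 17 starts were open without VEGF and 15 to 16 with it, and EGR1, EGR2, NR4A1, RCAN1, FOS, JUNB and PTGS2 were open in all 6. RCAN1 encodes an inhibitor of calcineurin, and its region (chr21:35899002-35899502) was the strongest of the fixed panel. The places were 482, 1437 and 2855 without VEGF and 1190, 299 and 1089 with it, overlapping groups with a difference of -0.78 ± 1.33 (-0.14 without control replicate 2 and -1.47 without withheld replicate 1). NR4A1, a nuclear receptor, had 11643, 32685 and 9638 against 22460, 32295 and 14915 (0.52 ± 0.59, and 0.18 without withheld replicate 3 or 1.06 without replicate 2). EGR3, a zinc finger factor downstream of VEGFR2, had a kept promoter peak in 2 withheld libraries and 1 control. Of the 146 regions near the 18 genes 0 were called, and the median was 0.09. At an unadjusted p below 0.05, 3 had a higher and 1 a lower score (2.74% in all, beside 5.03% of all tested regions). The groups did not overlap in 12 regions with a higher and 1 with a lower score without VEGF, that is 8.22% and 0.685%, beside 4.88% and 4.8% over all regions. The regions near housekeeping genes leaned the same way, with 11 of 90 regions higher, 0 lower and a median of 0.16. Over all lists, the 131 regions within 1 kb of a start had a median of 0.12 and the 928 farther ones 0.01. With kept tags as a covariate the median within 1 kb was 0.03, that of the induced genes 0.09 and that of the housekeeping genes 0.13. Without the shallow withheld replicate 1 these medians were 0.09, 0.13 and 0.14, and without withheld replicate 2 they were 0.05, 0.06 and 0.23. The cause of this lean was not tested.

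The panel of 20 genes, which also held endothelial and flow-response genes described below, was sensitive to single libraries. At 11 of the 20 genes the sign of the difference turned when 1 library was left out, namely at NRP1, NRP2, VEGFA, PGF, DLL4, ESM1, EGR3, FOXO1, NOS3, CDH5 and ERG.

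**Figure D3:**
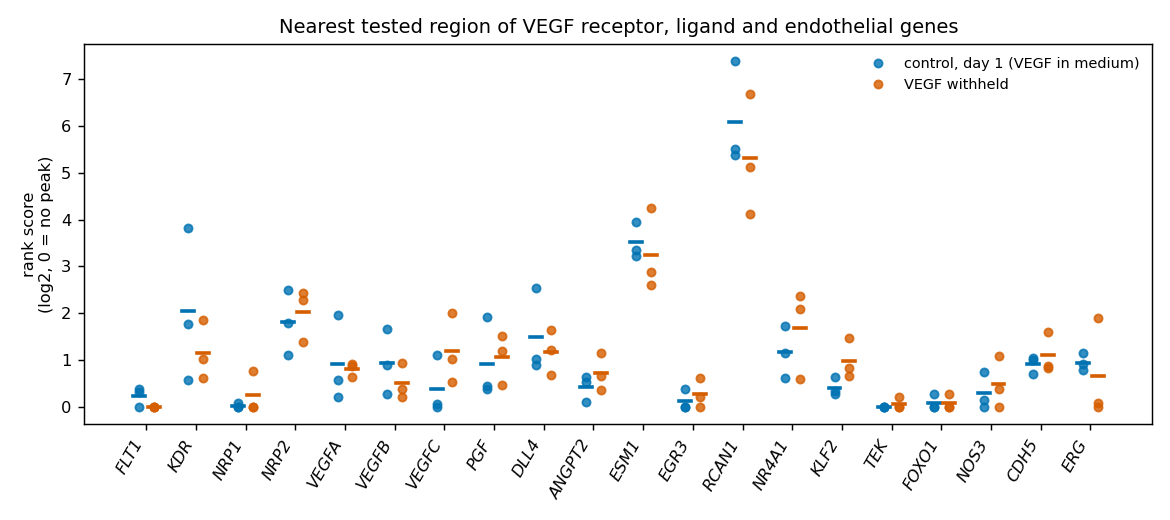
Rank score (vertical axis, log2 scale, 0 for no peak) of each library at the tested region nearest the start of 20 genes of the fixed panel (horizontal axis). Blue points are the 3 controls, orange points the 3 libraries without VEGF, and short lines the means; the groups overlap at 19 of the 20 genes, KLF2 being the one where all withheld points lie higher.

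Among the feedback inhibitors of MAP kinase, DUSP6, a phosphatase of ERK, had the second smallest p near any listed gene. In a region 37765 bp upstream (chr12:89783811-89784311) the places were 4799, 3965 and 7656 without VEGF and 17782, 23429 and 22549 with it. All withheld libraries were well above all controls, by 2.004 ± 0.549, yet the adjusted p was 0.906. SPRY1, an inhibitor of receptor tyrosine kinase signalling, had promoter places 33551, 33407 and 28157 without VEGF. A single control had a kept peak there, at place 48510, though all 3 controls had a called one, and the difference was 0.64 ± 0.23 (adjusted p = 0.974). Over the 58 regions of this list 3 were higher and 2 lower at an unadjusted p below 0.05 (8.62% in all, beside 5.03% of all tested regions), and 0 were called. The smallest p near a listed gene belonged to a region 6994 bp from the start of IER3, an early response gene, which also counts as near TUBB (chr6:30705083-30705583). Its places were 15821, 25822 and 14317 without VEGF and 46297, 44603 and 47966 in the controls, a separation of 1.36 ± 0.33 with an adjusted p of 0.894.

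Near sprouting, Notch and FOXO1 genes no region passed either. DLL4 had promoter places 30912, 21452 and 15827 without VEGF and 8503, 24573 and 26588 with it (-0.31 ± 0.51). Without control replicate 1 the DLL4 difference was 0.22. ESM1, which encodes endocan of tip cells, had a strong promoter at places 2623, 6793 and 8173 against 5319, 3208 and 4857 (-0.27 ± 0.96). The GC-rich DLL4 promoter and the ESM1 promoter without a GC box thus both overlapped between groups. ANGPT2, the destabilising ligand of TIE2, differed by 0.30 ± 0.40 at its nearest region, and CXCR4 had no tested region within 50 kb. JAG1, a Notch ligand, had a peak 1895 bp from its start at places 19114, 14898 and 5910 against 31247, 32209 and 31613. This peak is counted in 2 neighbouring regions, the first with a difference of 1.41 ± 0.50 (adjusted p = 0.974), in which all 3 withheld libraries lay above all controls. Without withheld replicate 3 it was 0.91. Both JAG1 regions are among the 6 higher ones counted next, so that count holds 1 peak 2 times. Of the 83 regions near Notch and arteriovenous genes 6 were higher and 2 lower at an unadjusted p below 0.05 (9.64% in all), beside 2.41% higher and 2.61% lower over all tested regions, and 0 were called. For the 67 near tip cell genes these numbers were 3 and 2 (7.46%), and for the 70 near FOXO1 targets and angiopoietin genes 1 and 4 (7.14%). The FOXO1 promoter itself had a kept peak in 1 library of each group, at places 40802 and 40897.

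Lower scores without VEGF, none of which passed, were seen at regions from under 1 kb to nearly 50 kb from listed starts. Each lower region named here was also lower than the same controls with IL1b and with TNFa, in medium that held VEGF. At the SELP region below these differences were -1.65 and -1.44, and at the SOX7 region -1.22 and -3.02. The falls are thus not particular to the withheld group. A region 49242 bp from ADAMTS1, encoding a secreted protease, had no kept peak in any withheld library and places 24734, 36413 and 19154 in the controls (-0.95 ± 0.27, adjusted p = 0.906). All 3 withheld libraries had a weaker called peak there. In a region 5824 bp from the start of SELP, the gene of P-selectin, the places were 33171, 41571 and 14857 without VEGF and 8303, 4212 and 12172 with it (-1.86 ± 0.61, adjusted p = 0.924). TEK encodes the angiopoietin receptor TIE2. A region 49025 bp upstream of it had no kept peak in withheld replicate 1 and places 9278 and 27633 in the others, against 9686, 8506 and 3512 (-1.82 ± 0.65, adjusted p = 0.974). Another, 30254 bp upstream, had places 27708 and 20978 in withheld replicates 2 and 3 and none kept in replicate 1, against 4891, 21985 and 10058 (-1.58 ± 0.61, adjusted p = 0.974; -1.05 without control replicate 1). Of the 12 tested regions within 50 kb of TEK, 6 were higher and 6 lower, from -1.82 to 1.11 with a median of 0.02. The region nearest the TEK start, 2676 bp away, differed by 0.07 ± 0.26. At THBD, encoding thrombomodulin, a region 697 bp from the start had a kept peak in 1 withheld library, at place 13350, and in 2 controls, at 5384 and 9438 (-1.24 ± 0.58, adjusted p = 0.987; -2.17 without control replicate 1). A region near SOX7, a factor of endothelial specification, had places 3227, 2867 and 6394 without VEGF and 985, 399 and 1055 with it. These groups did not overlap, the difference was -2.39 ± 0.96, and the adjusted p was 0.974. KLF2, a flow-induced factor, had the opposite order at its promoter, with places 28055, 17992 and 31211 above the controls at 41049, 31960 and 39496 (0.57 ± 0.42, and 0.33 without withheld replicate 2). The 11 tested regions within 50 kb of KLF2 went both ways, 6 higher and 5 lower, from -2.34 to 0.68. Only 1 of them had an unadjusted p below 0.05, and its score was lower. The CDH5 promoter overlapped, at 16328, 27791 and 27042 against 30636, 24748 and 23994 (0.19 ± 0.49), as did that of ERG (-0.29 ± 0.42). NOS3, the nitric oxide synthase of endothelium, differed by 0.19 ± 0.26 at its nearest region.

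In each of the 16 lists 0 regions were called. Over all tested regions 2.41% were higher and 2.61% lower at an unadjusted p below 0.05, against which the counts of the further lists are set. The flow response and vasoactive list had 0 higher and 3 lower of 70, leukocyte adhesion and coagulation 3 and 5 of 89, and endothelial transcription factors 0 and 1 of 85. Endothelial surface and junction genes had 3 and 1 of 78, and cell cycle genes 0 and 1 of 79. The marker lists of other cell types had 0 and 1 of 52 (epithelial), 0 and 1 of 41 (mesenchymal) and 2 and 1 of 40 (blood). List medians lay between -0.11, for the mesenchymal genes, and 0.16, for the housekeeping genes. The share of the strong peaks lying at listed starts was 0.272% ± 0.0112 without VEGF and 0.265% ± 0.0122 with it (SD, n = 3 each, exact permutation p = 0.6, two-sided).

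**Figure D4:**
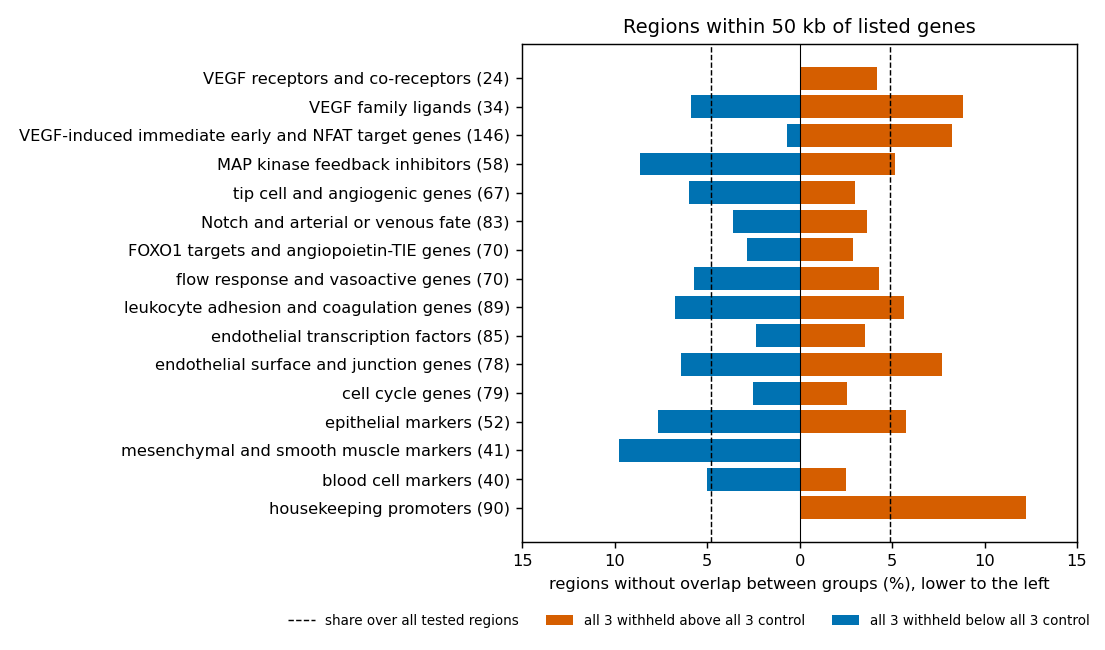
Share of the regions within 50 kb of each list's genes (horizontal axis, %) in which all 3 withheld libraries lay above (orange, right) or below (blue, left) all 3 controls, with the number of regions in brackets. Dashed lines are the shares over all tested regions, 4.88% and 4.8%; the housekeeping list reaches 12.2% to the right and 0 to the left.

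A count that needs no model gave the same size of difference in both directions. Among 67376 regions with a strong peak in at least 1 of the 6 libraries, 27239 had one in all 6. Only 359 (0.533%) had a strong peak in every withheld and in no control library, and 385 (0.571%) had the reverse. The peaks of both sets were weak, with median places of 34624 and 34638. In 52.6% of the first set and 45.5% of the second, the other group still had a weaker peak. With 1 library left out the counts were 747 to 952 and 750 to 963, since fewer libraries then have to match. Near listed genes, with 131 tested regions within 1 kb of a start and 928 farther, 4 were of the first kind, at SELE, SPRY1, VEGFA and FLI1. Another 8 were of the second kind, at HES1, DUSP1, KLF4, NOTCH1, KRT8, EFNB2, CNN1 and ADAMTS1. Both counts are small beside these numbers of regions, and 4 against 8 was not tested. At EFNB2, an arterial ephrin gene, the controls had places 43113, 42526 and 41562, near the end of the list, and no withheld library had a kept peak.

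The 10 regions with the smallest p, none near a listed gene, were 7 with a higher and 3 with a lower score. The first (chr15:44719779-44720279) had no kept peak in the withheld libraries and places 1761, 2527 and 2169 in the controls, a difference of -4.55 ± 0.71 (adjusted p = 0.0534). Against the same controls this region was called lower with IL1b (-3.33 ± 0.71, adjusted p = 0.0336, limma). It was also called lower with TNFa (-4.55 ± 0.71, adjusted p = 0.0267), where no library had a kept peak. Its fall is thus not particular to the withheld group. A peak was counted only if it covered 50% of the shorter of peak and region. When any overlap of 1 bp was enough, the withheld libraries had peaks there at places 5819, 1460 and 3251, and the difference was -0.51. In 6 of the 10 regions the difference shrank below 50% of its size in this way, and in 5 of these 6 all libraries then had a peak. In these 5 both groups had kept peaks, which met the region to different extents. At the regions ranked 2 and 3 only the withheld libraries had strong peaks under the 50% rule. Both thus entered the test through the withheld group alone. The region ranked 5 (chr2:86667665-86668165) had the same places under both rules, 2806, 3855 and 7859 without VEGF and 48935, 29185 and 41146 with it (3.14 ± 0.57, adjusted p = 0.107). The one ranked 10 (chr6:80838118-80838618) had 29526, 27242 and 25892 against 793, 6157 and 1551, also under both (-3.81 ± 0.77, adjusted p = 0.237). The one ranked 7 (chr3:160117362-160117862) had 10647, 8269 and 7209 against 38675, 30222 and no kept peak (2.17 ± 0.42, adjusted p = 0.177). In the regions ranked 5, 7 and 10 the groups did not overlap. The regions ranked 8 and 10 were also lower than the controls with IL1b (-3.57 and -2.63) and with TNFa (-2.63 and -2.97), without passing.

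**Figure D5:**
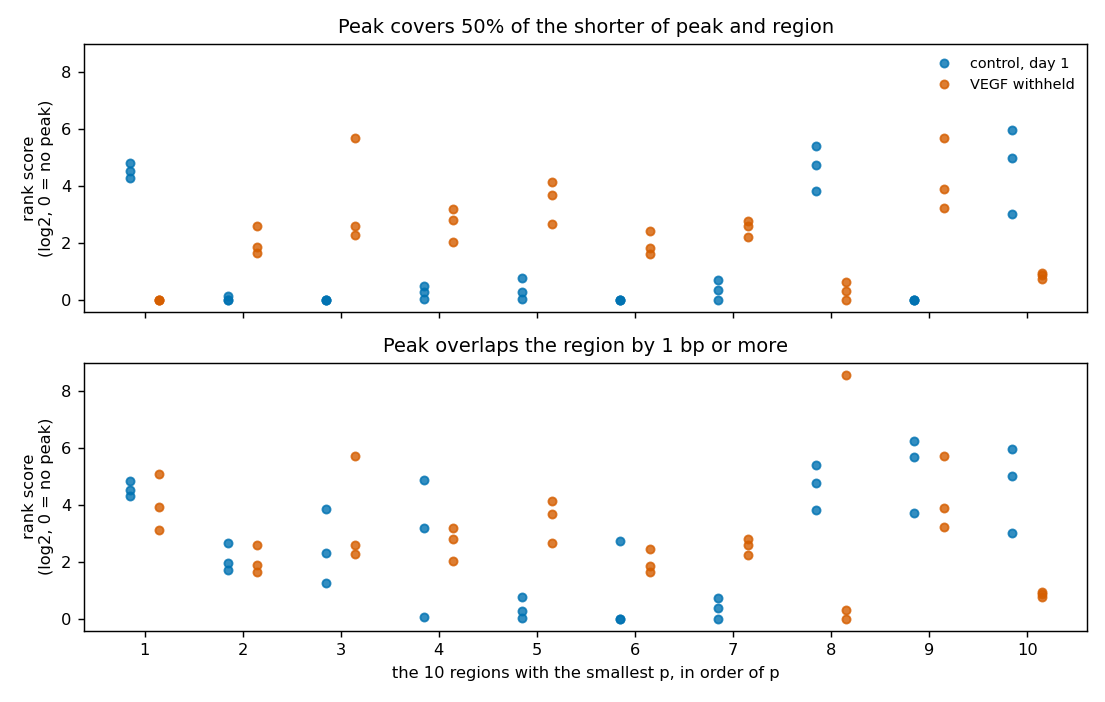
Rank score (vertical axis, log2 scale, 0 for no peak) of the 3 control (blue) and 3 withheld (orange) libraries at the 10 regions of smallest p, in order of p (horizontal axis). In the upper panel a peak must cover 50% of the shorter of peak and region, in the lower panel 1 bp; the groups come together at the first region and stay apart at those ranked 5, 7 and 10.

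Set directly against the cytokines, without the shared controls, chromatin without VEGF differed from that with IL1b in 234 of 58694 regions (0.399%). At an unadjusted p below 0.05 there were 6117 (10.4%). Scores were lower without VEGF in 222 and higher in 12. All 222 had a strong peak in 3 of 3 IL1b libraries, and 115 of them had none in any withheld or control library. A tested region needs a strong peak in at least 3 of the 12 libraries. These 115 thus entered the test only through the IL1b or TNFa libraries, so their pattern is partly set by that filter. Against the controls, the 234 regions had a median difference without VEGF of 0, and 15 of them (6.41%) had an unadjusted p below 0.05. The 115 regions without a strong peak in either group had little room to differ. The median therefore does not show that VEGF removal left these regions unchanged. Near listed genes 4 regions were called. The DUSP6 region above was 2.93 ± 0.55 higher than with IL1b (adjusted p = 0.0136), where 2 IL1b libraries had peaks at places 26919 and 47718 and 1 had none kept. The IER3 region was 1.47 ± 0.33 higher (adjusted p = 0.0435), and no IL1b library had a kept peak there. A region near TAL1, a factor of blood and endothelial development, was lower, with strong peaks in the 3 IL1b libraries alone among the 12 (-1.75 ± 0.35, adjusted p = 0.0215). One 30183 bp from the NRP2 start had strong peaks in all IL1b and TNFa libraries and in no withheld or control library (-2.08 ± 0.46 against IL1b, adjusted p = 0.0407). Where a group has no kept peak its score does not vary, which can make the p too small. Leaving out any 1 withheld library gave 28, 22 and 25 calls against IL1b (replicate 1, 2 and 3).

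Against TNFa 4 regions passed (0.00682%), each with an adjusted p of 0.0476, and 4209 (7.17%) had an unadjusted p below 0.05. The region at chr20:61076868-61077368 was lower without VEGF (-5.61 ± 0.92), with strong peaks in all 3 TNFa libraries, 1 withheld library and 1 control. The others were those ranked 2, 4 and 7 among the 10 regions above, with differences of 2.04 ± 0.34, 2.68 ± 0.43 and 2.48 ± 0.42. No TNFa library had a kept peak at those ranked 2 and 4, which can make the p too small. The one ranked 2 entered the test only through the withheld libraries, where it is high. Of these, the ones ranked 2 and 4 lost their difference from the controls when 1 bp of overlap counted. With the replicate number as a block 0 of these calls passed, as with lists ordered by fold enrichment or of 30000 peaks. Leaving out withheld replicate 1, 2 or 3 gave 2, 6 and 2 calls.

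The effect of VEGF was also compared between lines, as the score with VEGF minus that without it. Of 77247 regions 0 passed (0.0%), 4429 had an unadjusted p below 0.05 (5.73%), and the smallest adjusted p was 0.158. In Eahy926 alone, VEGF addition gave 0 calls among 56650 regions (0.0%) and 2875 (5.08%) at an unadjusted p below 0.05. Without withheld replicate 1, 2 or 3 the difference between lines gave 3, 9 or 5 calls. At the KDR promoter the places in Eahy926 were 13110, 16334 and 18103 with VEGF and 30036, 33878 and 23461 without it. The score was 0.87 ± 0.51 higher with VEGF, which did not pass (adjusted p = 0.967, limma). The difference between the lines' effects there was 0.02 ± 0.88. This does not show a shared effect, since neither line passed and the TeloHAEC value, withheld minus control, was -0.0066 without control replicate 3. The VEGFA promoter of Eahy926 had kept peaks at places 41252 and 39277 in 2 of 3 libraries with VEGF and in 0 of 3 without it (0.20 ± 0.22).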

How the data were processed

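ATAC-seq libraries were analysed from the deposited peak tables. The submitters' processing notes name Bowtie2 for alignment and hg19 as the build. Per the file headers, peaks were called per library with MACS2 2.1.1.20160309 on uniquely aligned single-end tags, with 1 tag kept per position, a p threshold of 0.001, separate summits and no control library. The authors' tables give for each summit its pileup (signal in tags), its p and q as −log10 and its fold enrichment, a ratio to local background. They hold no counts per region. A shift of reads for the transposase is not given in the sources used here.

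Summits of 1 peak were merged to the strongest, lists were ordered by the authors' p and shortened to 49774 peaks, and 107672 regions of 501 bp were built around the summits of the 45000 strongest peaks of all 30 libraries. Regions with a strong peak in at least 3 libraries of the fit were tested with limma 3.58.1 in R 4.3.3 (trend, two-sided, Benjamini-Hochberg) on the 12 TeloHAEC libraries of day 1, and the difference between lines on the 24 of day 1. Python 3.11.15, numpy 2.4.6, pandas 2.3.3, scipy 1.17.1 and matplotlib 3.10.9 handled lists, single values and figures, and the fit was tested on simulated data. Errors are standard errors unless SD is stated.

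The compared groups, the 16 gene lists and the tests were chosen with earlier results of these data known. For 174 of the 175 list genes the hg19 start was typed in from general knowledge, because no annotation of this build was used. All 174 lie on the chromosome that the RefSeq table of GRCh38.p14 gives, and 152 of 153 neighbours are in its order. On average over the 6 libraries, 61.3% of these starts had a strong peak within 1 kb, and 8.91% did after a move of 20 kb. A start can be some kb wrong, and another gene may lie nearer, so "near" (within 50 kb) and "promoter" are approximate. Named regions were, with fewer than 5 called, the 10 higher and 10 lower ones of smallest p near a listed gene, the region nearest each receptor, ligand and 13 further genes, and up to 2 of smallest p per list. Some are left out for readability. The 10 regions of smallest p overall and those called against the cytokines were chosen after their values were seen.

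Replicate numbers were checked for pairing: after removal of group means, the median correlation of same-numbered libraries was -0.01, and 0 of 18 pairs were above 0.1. The fits have no block. Alternatives covered the ordering, list length, overlap, low-peak filter, scores, fitted samples, kept tags and left-out libraries.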

Additional observations from a re-analysis of the deposited data

How the results depend on the processing

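No region passed against the controls when lists were ordered by fold enrichment, when they held 30000 peaks, without the low-peak filter, with kept tags as a covariate or with the replicate block. Other settings gave few calls: 5 with an overlap of 1 bp, 1 with 80%, 7 with lists of 67804 peaks, 3 with normal scores, 7 with only the 2 groups and 1 with pileup scaled to kept tags. Leaving out 1 library at a time gave 0 to 3. Settings chosen after seeing the data gave 5 without the 2 shallow libraries and 3 with the controls of day 0 added. Against IL1b there were 4 calls with 30000 peaks, in place of 234, and 22 to 28 without 1 withheld library. Against TNFa the 4 became 0 when ordered by fold enrichment or with 30000 peaks, 1 with 1 bp of overlap, and 2 to 6 without 1 library. The difference between lines gave 1 call with 30000 peaks, 1 with 1 bp, and 3 to 9 without 1 library. Regions with peaks in 1 group only numbered 747 to 952 (withheld) and 750 to 963 (control) when 1 library was left out, since fewer libraries then have to agree. For the other changes the cause was not tested.

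With the replicate number as a block there were 0 calls against the controls, 192 against IL1b, 0 against TNFa and 0 for the difference between lines. The same numbers of withheld and control libraries correlated at -0.02 to 0.03, which gave no sign of pairing. Withheld and TNFa libraries of replicate 1, 2 and 3 correlated at -0.10, 0.09 and -0.14. Whether libraries of 1 number shared a culture or batch is not known from these values. Among 64 named regions, 1098 of 1134 values from 19 settings kept their sign, and 17 values in 9 regions passed the threshold. Tables without counts per region give no counting error, and a library without a kept peak may still have a weaker called one.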
